A study of Mus musculus with 4 samples.

Results

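The TREM and CD300 receptors and their adaptor Tyrobp were measured in BALF cells, which are washed out of the airways and alveoli of the lung, after bleomycin had been given to wild-type mice and to S1pr2-/- mice. The genes were taken by name: the probes of 10 genes (Trem1, Trem2, Trem3, Treml2, Treml4, Tyrobp, Cd300a, Cd300lb, Cd300ld and Cd300lf) were found by matching the transcript accession of each probe to a gene symbol. This gave 13 of the 39429 probes of the array and 10 of the 20832 genes that could be named. The 4 one-color arrays held 2 samples of each genotype. The wild-type mice were littermates of mice that lacked S1pr2, a receptor for the lipid mediator sphingosine-1-phosphate, in the whole body. Both genotypes were of a mixed 129Ola;C57BL/6J background, were between 8 and 10 weeks old and received repeated intraperitoneal bleomycin at 0.035 U/g, a drug that injures the lung and leads to fibrosis. RNA was taken on day 22, and there were no arrays of untreated mice. Whether an array held cells of 1 mouse or of several was not given in the sources used here, so that p-values measure the spread between these samples only.

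TREM and CD300 receptors are single immunoglobulin-domain proteins on the surface of macrophages, neutrophils and other myeloid cells. TREM receptors have short tails and signal through TYROBP (DAP12), an adaptor whose ITAM motif recruits the kinase SYK. The CD300 family holds both activating members, which pair with DAP12 or with the Fc receptor gamma chain, and inhibitory members, whose own ITIM motifs recruit the phosphatases SHP-1 and SHP-2. In the lung, TREM1 is known as an amplifier of inflammatory responses, TREM2 as a lipid and apoptotic-cell sensor of macrophages, and the CD300 receptors as sensors of phospholipids exposed on dying cells. The question put to the data was whether these receptors differed between the genotypes.

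The deleted gene itself went against the labels. In log2 relative signal, defined below, S1pr2 stood at -0.13 and -0.16 in the wild-type samples but at 2.67 and 2.54 in the samples labelled S1pr2-/-, so that it was higher there. The log2 fold change was 2.75 (SE 0.072, adjusted p = 0.335 by limma and Benjamini-Hochberg), and whether the probe lies within the deleted part of the gene was not given in the sources used here. Whether these arrays hold the genotype on their label was not settled by this value, so all directions below follow the labels, the arrays are called those labelled S1pr2-/-, and every direction would turn if the labels were exchanged. The labels name alveolar macrophages as the tissue, and all 14 alveolar macrophage marker genes examined were well above background on all 4 arrays. So were all tested marker genes of T cells (10), B cells (9), NK cells (8), dendritic cells (9) and epithelial cells (11). Detection by this flag was thus not particular to alveolar macrophages. The flag also passed very dim probes. Cd79a of the B cell list carried it on all 4 arrays, although 2 of them stood at the floor of 0.01, the lowest relative signal kept. The 75th percentile of the processed intensity lay between 2489 and 2817 on the arrays, and 67.5% to 72.1% of the probes were well above background. All arrays lay on 1 slide and were scanned in 1 run, so no slide or scan effect could be examined.

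Values are given as relative signal, the background-corrected intensity of a probe divided by the 75th percentile of its own array, and a fold change is the log2 difference of this signal, arrays labelled S1pr2-/- minus wild-type. Signals of different probes are not compared with each other, since each probe binds with its own strength. All 13 probes were well above background on all 4 arrays and entered the test with 27158 probes in all. None of the 13 passed an adjusted p under 0.05 in limma, and this was also so for all 27158 probes (0% called). At an unadjusted p under 0.05, 0 of the 13 passed, beside 9.58% of all probes. More than 2-fold lower at an unadjusted p under 0.05 were 0 of 13, beside 0.633% of all probes, and more than 2-fold higher were 0 of 13, beside 0.107%. For 12 of the 13 probes, and 9 of the 10 genes, the difference between genotypes was under 1.5-fold. Most probes were alike in this: 4.76% of all probes tested had an absolute log2 fold change above 0.5845, about 1.5-fold. The median log2 fold change of the 10 genes, each by its brightest probe, was 0.08, beside a median of -0.003 over all probes tested. In bulk BALF cells, fewer cells of a type and less RNA per cell cannot be told apart.

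**Figure D1:**
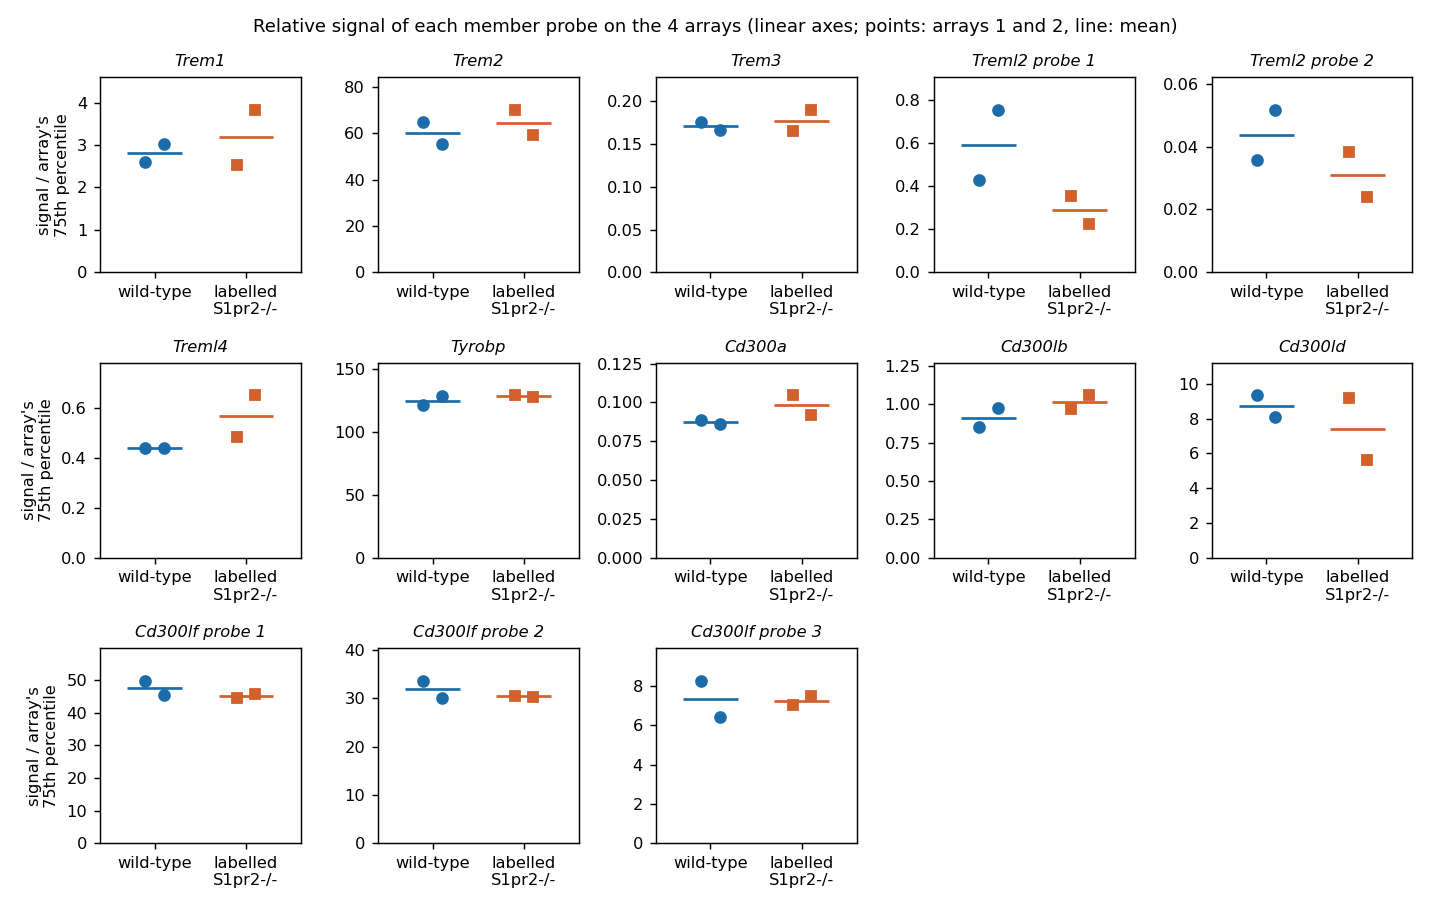
Relative signal (processed intensity over the array's 75th percentile, linear axes from 0, no unit) of each of the 13 probes on the 2 wild-type arrays (circles) and the 2 arrays labelled S1pr2-/- (squares), with lines at the means. The arrays of the genotypes overlap for 10 probes, Treml4 and Cd300a lie higher on both arrays labelled S1pr2-/-, and Treml2 probe 1 lies lower on both.

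Tyrobp, the shared adaptor, had the smallest difference of the 10 genes by their brightest probes. Its relative signal was 121 and 129 for wild-type, and 129 and 128 on the arrays labelled S1pr2-/-. The arrays overlapped, and the log2 fold change of 0.04 (SE 0.063, n = 2 per genotype, adjusted p = 0.836 in limma) had a 95% interval from -0.15 to 0.23. This was the narrowest interval among the 13 probes, and 80.5% of all probes tested showed a larger absolute difference.

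Trem2, the DAP12-coupled receptor that binds lipids and apolipoproteins, gave 64.9 and 55.2 for wild-type, and 70.2 and 59.1 on the arrays labelled S1pr2-/-. The genotypes interleaved: the highest and the third highest value were those labelled S1pr2-/-. The difference between the arrays of one genotype, 0.23 in log2 for wild-type and 0.25 for those labelled S1pr2-/-, exceeded the log2 fold change of 0.10 (SE 0.144, adjusted p = 0.807), whose 95% interval ran from 0.795-fold to 1.46-fold. The direction was not held: without wild-type replicate 2 the log2 fold change was -0.01, and without S1pr2-/- replicate 1 it was -0.02.

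Trem1, which on neutrophils and monocytes enhances responses to microbial products, gave 2.59 and 3.03 for wild-type, and 2.53 and 3.83 on those labelled S1pr2-/-. Its lowest and its highest value both belonged to the arrays labelled S1pr2-/-. The log2 fold change was 0.15 (SE 0.256, 95% interval -0.62 to 0.93, adjusted p = 0.843), and it was -0.15 without S1pr2-/- replicate 2 and 0.45 without S1pr2-/- replicate 1. For Trem1, a difference of 1.5-fold in either direction was therefore within the interval.

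Trem3, a DAP12-coupled mouse receptor next to Trem1, gave 0.177 and 0.166 for wild-type, and 0.165 and 0.190 on those labelled S1pr2-/-. The arrays overlapped, with a log2 fold change of 0.05 (SE 0.103, adjusted p = 0.880) and a 95% interval from 0.834-fold to 1.28-fold. Without S1pr2-/- replicate 2 the log2 fold change was -0.05.

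Treml4, a receptor that binds dead cells and associates with DAP12, gave 0.441 on each of the wild-type arrays, and 0.482 and 0.650 on those labelled S1pr2-/-. Both arrays labelled S1pr2-/- were the higher ones, but they differed from each other by 0.43 in log2, more than the genotypes did. The log2 fold change was 0.34 (SE 0.177, 95% interval -0.19 to 0.88, adjusted p = 0.594), the highest among the members. It was 0.13 without S1pr2-/- replicate 2 and 0.56 without S1pr2-/- replicate 1.

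Treml2 was the one member past 2-fold by its size. TREML2 is a family member without a DAP12 partner, known from neutrophils, macrophages and B cells. Its brighter probe gave 0.429 and 0.755 for wild-type, and 0.355 and 0.225 on those labelled S1pr2-/-, so that both arrays labelled S1pr2-/- were lower. The log2 fold change was -1.01 (SE 0.413, 95% interval -2.26 to 0.24), a signal 2.01-fold lower. It did not pass the test, with an unadjusted p of 0.0846 and an adjusted p of 0.548 in limma, and the exact two-sided permutation test of 2 arrays against 2 cannot go below 0.333. By size alone, 1.24% of all probes were more than 2-fold lower, and 1.39% had a larger absolute difference than this probe. The arrays of a genotype differed by 0.82 (wild-type) and 0.66 (labelled S1pr2-/-) in log2.

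The dimmer Treml2 probe gave 0.0357 and 0.0517 for wild-type, and 0.0382 and 0.0238 on those labelled S1pr2-/-. Here the arrays overlapped, and the log2 fold change was -0.51 (SE 0.344, adjusted p = 0.656). The order of the 4 arrays was nearly the same for both probes, with wild-type replicate 2 highest and S1pr2-/- replicate 2 lowest. For the brighter probe the log2 fold change was -0.60 without wild-type replicate 2, -0.68 without S1pr2-/- replicate 2, -1.42 without wild-type replicate 1 and -1.34 without S1pr2-/- replicate 1, so the size rested on those 2 arrays while the sign was the same in each.

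**Figure D2:**
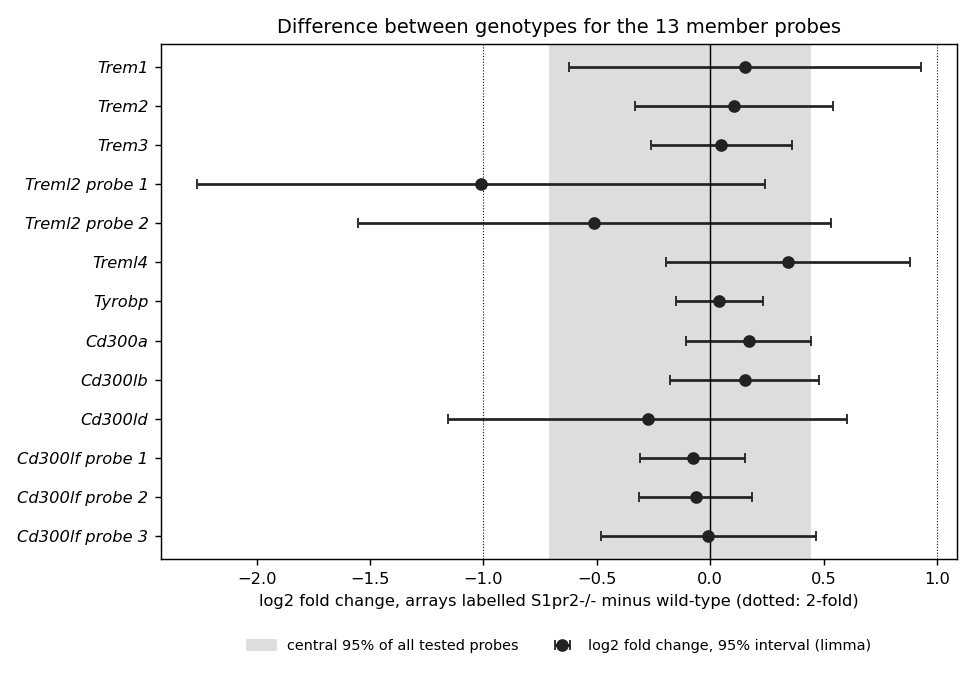
Log2 fold change (arrays labelled S1pr2-/- minus wild-type, horizontal axis) of the 13 probes with 95% intervals from limma, n = 2 per genotype. Dotted lines mark 2-fold and the gray band holds the central 95% of all 27158 probes, from -0.71 to 0.44. Every interval crosses 0, and Treml2 probe 1 is the one point outside the band.

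The CD300 members were taken by their signaling type. Cd300lf, an inhibitory receptor with ITIM motifs that binds phosphatidylserine and ceramide, had 3 probes. The brightest gave 49.8 and 45.4 for wild-type, and 44.4 and 45.8 on those labelled S1pr2-/-, a log2 fold change of -0.08 (SE 0.076, adjusted p = 0.740) with a 95% interval from 0.808-fold to 1.11-fold. The second gave 33.7 and 30.2 against 30.6 and 30.4, with a log2 fold change of -0.06 (SE 0.082). The third gave 8.25 and 6.40 against 7.01 and 7.46, with a log2 fold change of -0.01 (SE 0.157). All 3 probes overlapped between genotypes, and on all 3 wild-type replicate 1 was the highest array.

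Cd300a, the other inhibitory member, which recognizes phosphatidylserine and phosphatidylethanolamine on dying cells, gave 0.0886 and 0.0860 for wild-type, and 0.105 and 0.0922 on those labelled S1pr2-/-. Both arrays labelled S1pr2-/- were higher, by a log2 fold change of 0.17 (SE 0.091, adjusted p = 0.603) with a 95% interval from 0.930-fold to 1.36-fold. With Treml4 it was 1 of 2 probes of 13 that lay higher on both arrays, beside 20.0% of all probes tested, and Treml2 was 1 of 13 that lay lower on both, beside 21.7%.

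Cd300lb, an activating member that can pair with DAP12, gave 0.850 and 0.978 for wild-type, and 0.968 and 1.06 on those labelled S1pr2-/-. The arrays overlapped by a narrow margin, and the log2 fold change was 0.15 (SE 0.108, adjusted p = 0.671) with a 95% interval from 0.885-fold to 1.40-fold. Cd300ld, which pairs with the Fc receptor gamma chain, gave 9.35 and 8.11 against 9.17 and 5.65. Its single low array was S1pr2-/- replicate 2: the log2 fold change was -0.28 with all arrays (SE 0.290, 95% interval -1.15 to 0.60, adjusted p = 0.751), 0.07 without that array and -0.63 without S1pr2-/- replicate 1.

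The precision differed among the members. For 10 of the 13 probes (8 of the 10 genes by their brightest probe), the whole 95% interval lay within 2-fold in both directions. The 3 probes with wider intervals were both of Treml2 and the one of Cd300ld, each extending past 2-fold toward lower values. For 12 of the 13 probes, the larger of the differences between arrays of one genotype exceeded the difference between genotypes. The exception was Treml2 probe 1. The share over all probes is not given here for either count. The median absolute log2 fold change was 0.15 over the 13 probes and 0.12 over all probes tested.

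Most of the genes lie in clusters. Only their order was examined, so genes next to each other in this order can lie far apart. In the assembly GRCm38.p6, the order on chromosome 17 is Trem1, Trem3, Treml4, Treml2, Trem2 and Treml1, and that on chromosome 11 is Cd300lg, Cd300a, Cd300lb, Cd300ld, Cd300c2, Cd300ld4, Cd300e and Cd300lf (genes with a probe only), while Tyrobp is on chromosome 7. Neighbors differed in sign at several places. Treml2 had the lowest fold change of its cluster and Treml4, beside it, the highest, and in the CD300 cluster Cd300lb at 0.15 stood beside Cd300ld at -0.28. Of 13 other TREM, CD300 and PILR family genes listed, 8 had a probe, all well above background on all 4 arrays. Their log2 fold changes lay between -0.29 and 0.14, with 0 more than 2-fold apart at an unadjusted p under 0.05. The arrays overlapped for 6 of them, beside 58.3% of all probes tested. The other 2 were Pilrb1 (lower on both arrays labelled S1pr2-/-, -0.20) and Pilrb2 (higher on both, 0.14), which were named after their values were seen.

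**Figure D3:**
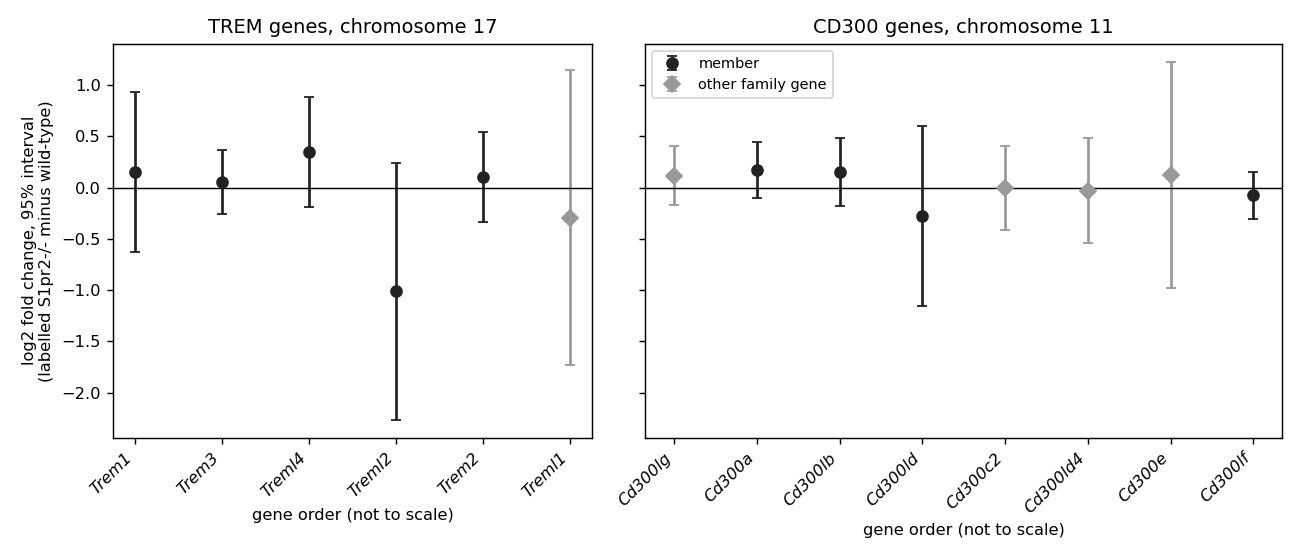
Log2 fold change (arrays labelled S1pr2-/- minus wild-type, vertical axis) with 95% intervals from limma for the TREM genes of chromosome 17 and the CD300 genes of chromosome 11, in their order along the chromosome (not to scale). Black circles are members and gray diamonds other family genes. All intervals cross 0.

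The pathway around the receptors was described by 6 lists with 105 genes, of which 97 had a probe and all 97 were tested. At an adjusted p under 0.05, 0 of their 136 probes were called by limma, and 16 had an unadjusted p under 0.05, beside 9.58% of all probes. More than 2-fold lower at an unadjusted p under 0.05 were 2 of the 97 genes, beside 0.633% of all probes, and 0 were higher, beside 0.107%. Lower on both arrays labelled S1pr2-/- were 20 genes, beside 21.7% of all probes, higher on both were 17, beside 20.0%, and 60 overlapped. For 92 of the 97 the fold change was under 1.5-fold, while 4.76% of all probes tested had an absolute log2 fold change above 0.5845, about 1.5-fold.

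Among the adaptors, the DAP10 gene Hcst gave 8.22 and 7.94 for wild-type, and 7.67 and 7.38 on those labelled S1pr2-/- (log2 fold change -0.10, SE 0.061, adjusted p = 0.626). The Fc receptor gamma chain gene Fcer1g, the partner of Cd300ld, gave 112 and 115 against 117 and 124 (0.09, SE 0.064, adjusted p = 0.686). Both adaptors had non-overlapping arrays, in opposite directions, by 1.07-fold for Hcst and 1.06-fold for Fcer1g. Clec5a, another DAP12-coupled receptor, overlapped (-0.10, SE 0.081). The 16 tested DAP12 and DAP10 partner genes had a median log2 fold change of 0.03. Of these, 3 were lower on both arrays (beside 21.7% of all probes), 4 higher on both (beside 20.0%) and 9 overlapped.

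Downstream of the ITAM, Syk gave 29.3 and 28.1 for wild-type, and 26.0 and 26.0 on those labelled S1pr2-/-, lower on both (log2 fold change -0.14, SE 0.059, adjusted p = 0.550). The 31 ITAM signaling genes had a median of -0.007 and ranged from -0.52 to 0.47. Of these, 4 were lower on both arrays (beside 21.7% of all probes), 4 higher on both (beside 20.0%) and 23 overlapped. Downstream of the ITIM, the SHP-1 gene Ptpn6 overlapped (0.09, SE 0.091), the SHP-2 gene Ptpn11 was lower on both arrays (-0.13, SE 0.055, adjusted p = 0.554), and the SHIP1 gene Inpp5d overlapped (0.006, SE 0.061). Of the 16 ITIM receptors and phosphatases, 5 were lower on both arrays (beside 21.7% of all probes) and 2 higher on both (beside 20.0%). The other 9 overlapped, and the median of the list was -0.02.

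One gene of the ITIM list, Siglecg, an inhibitory sialic acid receptor best known from B cells, was more than 2-fold lower at an unadjusted p under 0.05. Its brighter probe gave 0.150 and 0.248 for wild-type, and 0.0819 and 0.0753 on those labelled S1pr2-/-, a log2 fold change of -1.30 (SE 0.294, unadjusted p = 0.018, adjusted p = 0.509 in limma). Its second probe gave -1.04 (SE 0.301), and both probes were lower on both arrays.

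Of the 8 genes for ligands and sheddases, 5 were lower on both arrays (beside 21.7% of all probes), 0 were higher on both (beside 20.0%) and 3 overlapped, with a median log2 fold change of -0.08. Pglyrp1, a peptidoglycan-binding protein of neutrophil granules and a ligand of TREM1, gave 0.653 and 2.62 for wild-type, and 0.281 and 0.424 on those labelled S1pr2-/-. The wild-type arrays differed by 2.01 in log2, more than the genotypes did, and the log2 fold change of -1.92 (SE 0.819, adjusted p = 0.555) did not pass the test. Apoe, a lipid carrier and ligand of TREM2, gave 71.4 and 13.3 against 65.6 and 35.2, with wild-type replicate 2 standing apart at the low end (0.64, SE 1.01, adjusted p = 0.835). The sheddase genes Adam10 (0.07, SE 0.075) and Adam17 (0.09, SE 0.085) overlapped between genotypes.

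The 18 tested genes of macrophages in a TREM2-associated, lipid-handling state had a median log2 fold change of 0.02. Of these, 2 were lower on both arrays (beside 21.7% of all probes), 6 higher on both (beside 20.0%) and 10 overlapped (beside 58.3%). Gpnmb, a glycoprotein of this state, gave 21.5 and 17.8 for wild-type, and 23.2 and 24.3 on those labelled S1pr2-/-, higher on both (0.28, SE 0.123, adjusted p = 0.565). Csf1, the growth factor of macrophages, was the one gene of this list more than 2-fold lower at an unadjusted p under 0.05. It gave 0.775 and 1.45 against 0.451 and 0.374 (log2 fold change -1.37, SE 0.373, unadjusted p = 0.030, adjusted p = 0.514), and its other 2 probes gave -1.05 and -1.11.

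**Figure D4:**
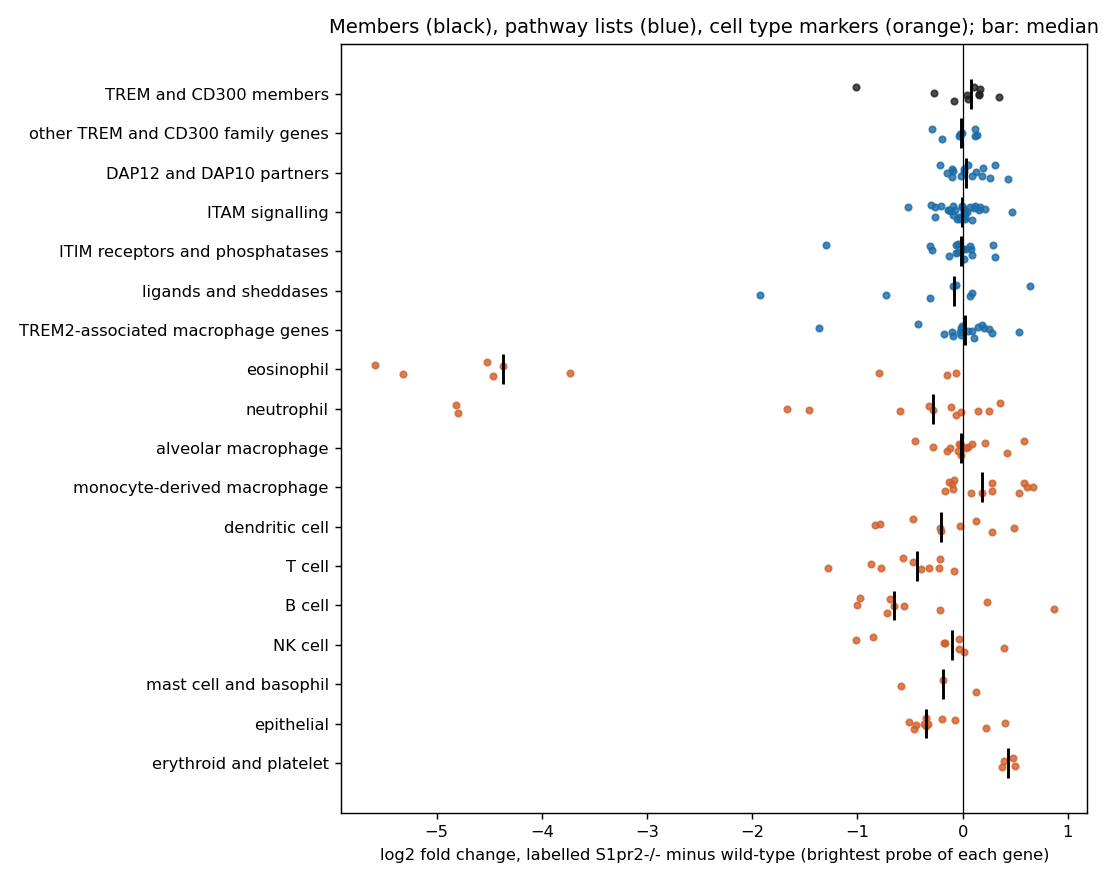
Log2 fold change (arrays labelled S1pr2-/- minus wild-type, horizontal axis) of the brightest probe of each tested gene, for the 10 members (black), 6 pathway lists (blue) and 11 cell type marker lists (orange), with a bar at each median. The members and pathway lists center near 0 (medians from -0.08 to 0.08), while the eosinophil median is -4.37.

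Markers of the cells that BALF can hold were read beside these values, by the number of genes of each list more than 2-fold lower at an unadjusted p under 0.05 and by the summed relative signal of the list. Such a sum mostly follows the brightest probes of its list and can hide differences of dim ones, so the counts and medians are given first. The macrophage lists showed 0 such genes: the alveolar macrophage list had a median log2 fold change of -0.01, from Krt79 at -0.45 to Fabp4 at 0.58, and the monocyte-derived macrophage list one of 0.18, from Itgam at -0.17 to Cx3cr1 at 0.67. Their summed signals were 1020 and 1101 on the wild-type arrays against 1009 and 1083 for the alveolar list, and 254.8 and 244.0 against 269.9 and 241.1 for the monocyte-derived list.

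The granulocyte and lymphocyte lists had medians below 0. For eosinophils, 6 of 9 tested genes were more than 2-fold lower, with a median of -4.37, from Gata1 at -5.58 to Ear1 at -0.07. Epx, eosinophil peroxidase, was at least 23.0-fold lower, with 1 array at the floor (95% interval of the fit 5.09-fold to 104-fold). This bound equals the fitted fold and allows for the floor only, while the interval goes lower. The summed signal was 184 and 222 against 159 and 190. Most of it came from Rnase2a (100 and 113 against 88.8 and 104) and Ear1 (74.0 and 82.2 against 67.8 and 81.9). Both of these overlapped between genotypes, and Rnase2a was named after its values were seen. For neutrophils, 3 of 13 genes were more than 2-fold lower, with a median of -0.28, from Retnlg at -4.81 to Ltf at 0.36. The summed signal was 92.0 and 103 for wild-type, and 76.0 and 69.5 on those labelled S1pr2-/-. The granule gene Ngp was at the floor on all 4 arrays. For B cells it was 0 of 9, with a median of -0.66 and Pax5 highest at 0.87, and a summed signal of 3.56 and 2.00 against 2.14 and 1.71, with Cd79a at the floor on 2 arrays. For T cells it was 1 of 10, with a median of -0.43, from Trat1 at -1.28 to Cd4 at -0.08, and a summed signal of 51.4 and 58.2 against 42.7 and 47.6. Among the marker genes named here, Gata1 (0.458 and 1.33 for wild-type, against 0.0115 and 0.0230) was highest on wild-type replicate 2. So were Epx (0.129 and 0.456 against the floor of 0.01 and 0.0111), Retnlg (6.29 and 20.2 against 0.289 and 0.555) and Trat1 (0.0935 and 0.101 against 0.0550 and 0.0291). Gata1, Retnlg and Trat1 had the lowest fold changes of their lists. Ltf was highest on S1pr2-/- replicate 2 (4.22), and S100a8, Elane and Cd3g were highest on S1pr2-/- replicate 1 (19.6, 5.62 and 1.34). Mmp8, Csf3r, Mpo, Cd8a and Cd8b1 were highest on wild-type replicate 1. All of these but Ltf were named after their values were seen. The other tested neutrophil and T cell genes were highest on wild-type replicate 2. Treml2, Pglyrp1, Siglecg, Csf1 and the eosinophil, neutrophil and T cell sums were also highest on wild-type replicate 2, whereas the B cell sum was highest on wild-type replicate 1. Of the arrays labelled S1pr2-/-, replicate 1 was the lower for Gata1, Epx, Retnlg, Pglyrp1 and the eosinophil and T cell sums. Replicate 2 was the lower for Trat1, Treml2, Siglecg, Csf1 and the neutrophil and B cell sums. Most of the T cell sum came from Cd2 (33.9 and 39.2 for wild-type, against 27.1 and 36.2), named after its values were seen. For every T cell gene but Cd2 and Cd4, replicate 2 was the lower of the arrays labelled S1pr2-/-. The part of eosinophils, neutrophils, B cells and T cells in the values of Treml2, Pglyrp1, Siglecg and Csf1 was not tested.

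In the remaining lists, 0 genes were more than 2-fold lower or higher at an unadjusted p under 0.05. The median was -0.21 for dendritic cells (from Batf3 at -0.83 to Cd209a at 0.49) and -0.10 for NK cells (from Eomes at -1.02 to Klrb1c at 0.39). It was -0.19 for the 3 of 8 mast cell and basophil genes with a probe that could be tested. These ran from Mcpt4, at the floor on 1 array and at least 1.51-fold lower (95% interval of the fit 1.07-fold to 2.12-fold), to Kit at 0.13. The median was -0.34 for epithelial cells (from Cdh1 at -0.50 to Foxj1 at 0.41). For the 4 tested erythroid and platelet genes it was 0.44 (from Pf4 at 0.38 to Hba-a1 at 0.50).

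The values of the members were set against 13 other ways of processing the arrays and 4 fits that each left out 1 array. No gene changed sign under the 13 other settings. The lowest adjusted p of any member under the 13 settings was 0.522 in limma. Treml2 lay between -1.02 and -0.76 under the 13 settings and between -1.42 and -0.60 when an array was left out, whereas Trem1, Trem2, Trem3, Tyrobp and Cd300ld each crossed 0 in at least 1 fit without an array.

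**Figure D5:**
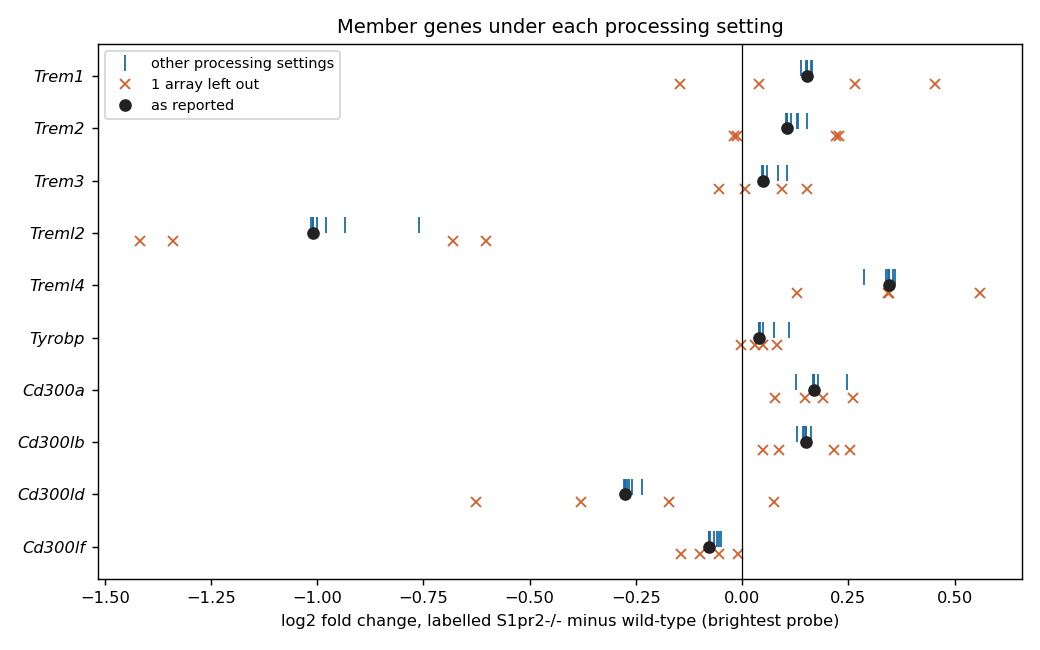
Log2 fold change (arrays labelled S1pr2-/- minus wild-type, horizontal axis) of each member gene by its brightest probe, as reported (black circles), under 13 other settings (blue ticks) and with 1 array left out (orange crosses). Treml2 lies between -1.42 and -0.60 throughout, and the crosses of Trem1, Trem2, Trem3, Tyrobp and Cd300ld lie on both sides of 0.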

How the data were processed

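The authors deposited, for each of 4 one-color arrays of BALF cell RNA, the background-corrected intensity of every spot, as written by Agilent Feature Extraction (10.7.3.1 in the submitters' processing notes, 11.0.1.1 in the file headers, with scanner model G2505C). They also deposited a table of log2 values normalized to the 75th percentile and to the wild-type arrays: 99.5% of probes matched the scanner values within 0.01 once each array's constant (0.0123 or less) was removed, and the column medians were 0.02, -0.02, -0.06 and -0.03. It served as an alternative. The sources name a floor of 0.01 before scaling, whereas here it was set after scaling.

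The intensity was divided by the 75th percentile over all non-control spots of the array, floored at 0.01 and log2 transformed. Spots with an outlier flag (115 to 273 per array) were left out, spots of a probe were averaged, and there were 0 saturated spots. A probe was tested if all 4 arrays measured it and if both arrays of either genotype were well above background (27158 probes). The test was limma 3.58.1 in R 4.3.3 (lmFit, eBayes), with Benjamini-Hochberg adjustment over all of them, unpaired. Where a signal was at the floor or not well above background in a genotype, a lower bound is printed ("at least"): the brighter genotype's mean was set against the dimmer one's, after raising each dim array to the lowest signal it could detect well above background if the probe lay under that. For Epx and Mcpt4 no array was raised, so the bound equals the fitted fold and leaves out its sampling error. Precision is limited by how few arrays there were. The limma fit was tested on simulated data with known shifts. Gene symbols, which the files lack, came from RefSeq accessions of the assembly GRCm38.p6 for 27427 of 39429 probes (69.6%). Coordinates are not printed, since the array was designed on a different build. Where a gene had several probes, the one with the highest mean signal stood for it.

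The members, gene lists and tests were chosen with earlier results of these data known. The text names all members, S1pr2, a few pathway genes chosen for their role, pathway genes past 2-fold at an unadjusted p under 0.05, and the genes at both ends of each marker list. One gene that this rule would name is not reported here. Other genes are marked where named. The alternatives comprised cyclic loess or quantile normalization, a percentile over detected probes only, normexp (offset 50, on the median signal, since the mean signal was not among the columns), the authors' table, no floor, no filter, a stricter filter, a trended variance, flagged spots kept, a replicate block, the methods' t-test, all probes of a gene averaged, other fold and p thresholds, and leaving out each array, where the lone array was assumed to vary like the others.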

Additional observations from a re-analysis of the deposited data

How the results depend on the processing

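Under every alternative run, 0 of the 13 probes were called at an adjusted p under 0.05 or were more than 2-fold higher at an unadjusted p under 0.05. With the fold alone, 1 probe (Treml2) was more than 2-fold lower. Lower on both arrays labelled S1pr2-/- were 2 probes, in place of 1, both with the percentile over detected probes and with the authors' log2 table. Higher on both were 3 probes, in place of 2, with quantile normalization, cyclic loess and normexp. With an array left out the counts were 2 to 5 lower and 4 to 5 higher, where the comparison is of 1 array with 2 and so has fewer values to overlap. Of the log2 fold changes of single genes under these alternatives, 164 had the same sign, many under settings that could not change them. The other 6 reversed, all with an array left out. Tyrobp gave -0.0024 without wild-type replicate 1, Trem2 gave -0.0127 without wild-type replicate 2 and -0.0196 without S1pr2-/- replicate 1, and without S1pr2-/- replicate 2 Trem1 gave -0.147, Trem3 -0.0542 and Cd300ld 0.0740. With each array left out in turn, Trem1 ranged from -0.147 to 0.454, Trem2 from -0.0196 to 0.229, Trem3 from -0.0542 to 0.153, Tyrobp from -0.0024 to 0.0821 and Cd300ld from -0.626 to 0.0740. Nothing in the labels ties same-numbered arrays together. The deviations of the replicate 1 arrays from their genotype means correlated at 0.187 over all tested probes. With 2 arrays per genotype, those of the replicate 2 arrays are their mirror image and add nothing. With the replicate block, 0 probes were called and Treml2 gave -1.01 (adjusted p = 0.554 in limma). With 2 arrays per genotype, true differences of any size within the intervals given remained compatible with the data, and no detection limit was computed.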

Other observations

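Some genes around the receptors, all named after their values were seen, stood out by their spread or direction. Apoc1, an apolipoprotein of lipid-handling macrophages, gave relative signals of 6.76 and 0.473 for wild-type, and 4.05 and 0.699 on those labelled S1pr2-/-, so that replicate 1 exceeded replicate 2 in both genotypes, as it did for Apoe and for Trem2. The log2 difference between the arrays of a genotype was 3.84 and 2.53 for Apoc1, 2.42 and 0.90 for Apoe, and 0.23 and 0.25 for Trem2, and the log2 fold change of Apoc1 between genotypes was -0.09 (SE 1.80).

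Clu, the gene of clusterin, a lipoprotein that TREM2 binds, gave 9.85 and 7.61 for wild-type, and 5.11 and 5.34 on those labelled S1pr2-/- (log2 fold change -0.73, SE 0.157, unadjusted p = 0.0154, adjusted p = 0.509 in limma). Siglec1, a sialic acid receptor of macrophages, gave log2 values of 2.86 and 2.91 against 3.15 and 3.23 (0.31, SE 0.064, adjusted p = 0.509), higher on both arrays labelled S1pr2-/-, and its second probe was higher on both as well (0.17, SE 0.096). Lat2, an adaptor of ITAM signaling in myeloid and B cells, gave 0.550 and 0.543 against 0.895 and 0.641 (0.47, SE 0.196, adjusted p = 0.550), the highest value of the ITAM list.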
